A study of Mus musculus with 4 samples.

Results

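The cells described here were 3108 of 21920 cells in single-cell RNA libraries of the mouse heart, chosen as mature capillary cells by the summed UMIs of Timp4, Car4, Rgcc and C1qtnf9. Read over each group as a whole, their markers fitted that label in the P2 and adult libraries (3066 cells), and not in the embryonic ones (42 cells). A UMI (unique molecular identifier) marks 1 captured transcript. Coronary endothelial cells were gated first, by at least 1 UMI over Fabp4, Cldn5 and Aplnr, no UMI of the endocardial genes Npr3 and Tmem108, and at most 2 UMIs over the interferon genes Ifit1, Ifit3, Rsad2, Iigp1 and Cxcl10. Of the 8775 gated cells, a cell was called a Timp4/Car4 cell when the 4 capillary genes held at least 2 UMIs, more than the sprouting genes Kcne3, Apln, Tmem255a, Pcdh17 and Ptp4a3 together, and more than the artery genes Cxcl12, Glul, Alpl, Nebl and Stmn2 together. The E12 library gave 2 such cells, the E15 library 40, the P2 library 1352 and the adult library 1714. The cells they were compared with, 1813 in all, passed the same gate and held at least 2 UMIs of the sprouting genes and more of them than of the capillary genes. These Kcne3/Apln cells numbered 56, 384, 1224 and 149 at the same stages. They were not required to exceed the artery genes, so the rule was not symmetric.

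Each stage was 1 library of CD31+/CD45- sorted heart cells from C57Bl6J mice. The animals pooled numbered 37 (E12), 48 (E15), 21 (P2) and 6 (Adult, 8 weeks old). No allele or treatment differed between stages, but handling did. Embryonic hearts were digested with Collagenase/Dispase, for longer at E15 than at E12, and postnatal hearts with Collagenase II and then Collagenase/Dispase. Dead cells were removed with a kit from the embryonic suspensions and by a further sort from the postnatal ones. The libraries held 8122358, 7079759, 29645059 and 7650091 UMIs in cells, with a median of 1241, 1013, 4531.5 and 1510 UMIs per cell in stage order. With 1 library per stage no test was possible, and stage and library cannot be told apart. P2 and adult hearts were digested alike, so that digestion is confounded only with comparisons that hold an embryonic library, and depth was made equal, by thinning, only where this is said. Intervals are 95% intervals for counting error only. Barcodes were shared between pairs of libraries 25 to 60 times, where 33.0 to 48.4 were expected by chance.

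Capillary endothelium of the heart passes nutrients to muscle that burns mainly fatty acids. Lipoprotein lipase, held on the capillary wall by Gpihbp1, frees fatty acids from triglyceride-rich particles, and Cd36 carries them into the cell. Car4 is a carbonic anhydrase on the capillary surface, Timp4 an inhibitor of matrix metalloproteinases, C1qtnf9 a secreted relative of adiponectin, Rgcc a regulator of the cell cycle, and Aqp7 a channel for water and glycerol. While vessels grow, capillary cells instead carry sprouting genes such as Apln, the ligand of the apelin receptor.

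The promoters of the leading genes are shown because these genes define or track the cells: Timp4 and Car4 were used by the rule, while Aqp7 and Cd36 were the first and the second gene of those not used by it. That order is by the smaller log2 ratio over Kcne3/Apln cells at P2 and in the adult, with 20 CPM added to both sides. Each sequence is the 250 bases before the first start site listed by RefSeq on GRCm38.p6, read 5′ to 3′ on the gene's strand. Capitals mark 2 motifs, AGGTCA or its reverse complement TGACCT, the core bound by nuclear receptors such as Pparg, and GGGCGG or CCGCCC, the GC box.
Timp4, chr6:115252206-115252455, minus strand: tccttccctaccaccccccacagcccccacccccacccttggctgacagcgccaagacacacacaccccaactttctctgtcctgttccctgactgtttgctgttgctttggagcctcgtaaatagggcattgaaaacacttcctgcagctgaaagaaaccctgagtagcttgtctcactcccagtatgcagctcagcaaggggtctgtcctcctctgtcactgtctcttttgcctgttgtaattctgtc
Car4, chr11:84957504-84957753, plus strand: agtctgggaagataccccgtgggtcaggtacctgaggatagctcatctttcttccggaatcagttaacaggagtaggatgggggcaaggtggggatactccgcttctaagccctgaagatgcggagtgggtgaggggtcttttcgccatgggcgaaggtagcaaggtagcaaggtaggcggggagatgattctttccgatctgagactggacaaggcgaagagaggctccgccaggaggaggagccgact
Aqp7, chr4:41047963-41048212, minus strand: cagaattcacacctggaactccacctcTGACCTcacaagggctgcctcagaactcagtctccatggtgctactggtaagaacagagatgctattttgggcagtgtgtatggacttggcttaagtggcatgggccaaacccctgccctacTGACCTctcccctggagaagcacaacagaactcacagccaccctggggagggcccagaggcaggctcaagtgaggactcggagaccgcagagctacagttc
Cd36, chr5:17835897-17836146, minus strand: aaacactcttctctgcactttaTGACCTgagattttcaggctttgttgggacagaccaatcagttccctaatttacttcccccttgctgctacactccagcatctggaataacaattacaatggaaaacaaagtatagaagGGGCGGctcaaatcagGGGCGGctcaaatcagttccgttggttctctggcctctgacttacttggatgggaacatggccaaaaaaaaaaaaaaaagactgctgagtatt
Neither motif was found in the windows of Timp4 and Car4, nor in that of C1qtnf9, while the Rgcc window, not shown, held 5 GC boxes and no core. The Aqp7 window held 2 nuclear receptor cores and no GC box, and the Cd36 window held 1 core and 2 GC boxes. The windows of Aqp7 and Cd36 overlap the genes as annotated, since each gene has a further start upstream. Of 32851 promoter windows of the same length, 14.0% held the nuclear receptor core and 32.7% the GC box, so either match is common. A match is a description of these letters only.

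All 5 markers of mature capillary cells were present in the chosen cells at P2 and in the adult, but 4 of them were used by the rule. Those 4 are therefore no support for the label, and the cells chosen in the embryo did not meet it. The levels of Timp4, Car4, Rgcc and C1qtnf9 follow from the rule and are given as a description, as CPM (counts-per-million, of all UMIs of the cell group). In P2 Timp4/Car4 cells Timp4 stood at 233 CPM, Car4 at 570, Rgcc at 1100 and C1qtnf9 at 188. In the adult cells the same genes stood at 643, 571, 2540 and 870 CPM. Aqp7, the 1 marker that the rule did not use, had a UMI in 62.1% of the P2 and 56.7% of the adult cells. In endocardial cells of the same libraries, which should lack it, the share was 4.10% at P2 (median depth 4853 UMIs against 3919) and 5.17% in the adult (2653.5 against 1429). Among all gated coronary cells, the Timp4/Car4 cells included, it was 40.5% and 53.2%. In the adult it was 61.4% in the artery-gene cells described below and 34.2% in Kcne3/Apln cells. Adult Aqp7 thus set the cells apart from endocardium and Kcne3/Apln cells, but not from artery-gene cells. Pan-endothelial genes were present throughout: Egfl7, a secreted endothelial protein, had a UMI in 98.6% and 89.7% of the cells, and the adhesion molecule Pecam1 in 89.6% and 62.7%.

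In the embryo the data went against the label, and the cells chosen there are better called Rgcc cells. Both E12 cells were chosen by Rgcc alone, with 4 UMIs between them, and Timp4, Car4, C1qtnf9 and Aqp7 were at 0. The 40 E15 cells held 92 UMIs of Rgcc, 6 of C1qtnf9, 1 of Car4 and none of Timp4, and 28 of them had exactly the 2 UMIs that the rule asked for. E12 barcodes with fewer than 100 UMIs, taken as empty droplets, also held 35 Rgcc and 16 Car4 UMIs of 728196. Against the 384 E15 Kcne3/Apln cells, 100 of 1652 genes (6.05%) were higher by at least 1.5-fold and 293 (17.7%) lower, from 56899 UMIs in the 40 cells, and no gene is read from these counts. The comparisons of genes below use P2 and the adult.

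Timp4/Car4 cells made up a large part of gated coronary cells at P2 and in the adult, and the Rgcc cells that the rule chose in the embryo a small one. In stage order from E12 to the adult the share of cells chosen by the rule was 0.669% [0.0811 to 2.40], 2.73% [1.95 to 3.69], 38.5% [36.9 to 40.1] and 49.0% [47.3 to 50.7]. The share of Kcne3/Apln cells was 18.7%, 26.2%, 34.9% and 4.26% in the same order. The former was larger at each later stage, while the latter was lowest in the adult. Cells led by the artery genes made up 10.0%, 3.54%, 15.6% and 33.6%, and gated cells that met none of the 3 rules made up 70.6%, 68.0%, 16.3% and 14.4%. Some Kcne3/Apln cells were also artery-gene cells (6, 187 and 44 cells in the last 3 libraries), so these shares add up to more than the whole there.

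The shares depended on depth, and P2 cells carried more UMIs than those of the other libraries. With each gated cell thinned to 500 UMIs, which left out 4 shallower cells at E12 and 89 at E15, the share of cells chosen (at E12 and E15 again Rgcc cells) was 0.339%, 0.943%, 12.6% [11.6 to 13.8] and 34.0% [32.4 to 35.6]. That of Kcne3/Apln cells was 2.37%, 9.0%, 6.35% and 1.69%. At equal depth the adult share thus lay above the P2 share by more than counting error, while E12 and E15 could not be ordered, with 1 of 295 cells [0.0086 to 1.87] and 13 of 1378 [0.503 to 1.61]. The Kcne3/Apln share, highest at P2 without thinning, was highest at E15 after it. Among endocardial cells, 0.314%, 0.392%, 6.63% and 5.17% reached 2 UMIs of the capillary genes without thinning, against 1.34%, 3.68%, 65.0% and 74.4% of gated coronary cells. Counting error covers neither animals nor handling, and the limit on interferon genes took out 13.2% of the adult cells that passed the rest of the gate but 6.4% of the P2 ones.

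**Figure D1:**
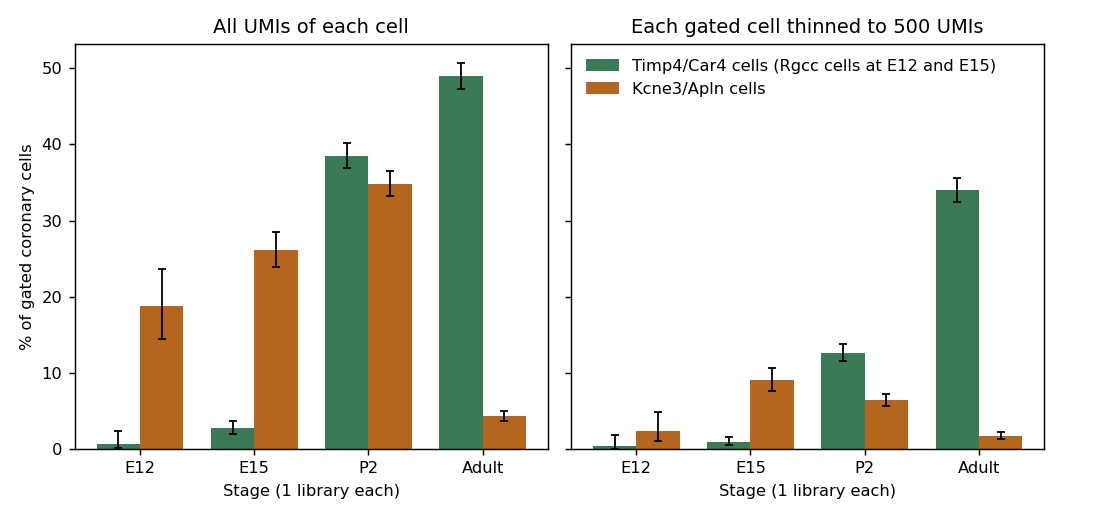
Share of gated coronary cells (y axis, percent) that the rule chose as Timp4/Car4 cells (green, Rgcc cells at E12 and E15) or Kcne3/Apln cells (brown) at each stage, with all UMIs of each cell on the left and each cell thinned to 500 UMIs on the right. Bars are 1 library each and whiskers exact binomial 95% intervals. The Timp4/Car4 share was highest in the adult in both panels, at 49.0% and 34.0%.

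Across all gated coronary cells, with no choice by these genes, the capillary genes were absent or scarce at E12 and highest in the adult. The gated cells were not alike across stages. At least 2 UMIs of Fabp4, Cldn5, Aplnr and Cd36 were held by 37.8%, 80.3%, 99.1% and 99.4% of them in stage order. For 7 fibroblast markers the shares were 17.1%, 7.70%, 6.32% and 2.80%. Depth was not made equal here, and the part of this make-up in the levels and in the shares above was not tested. Timp4 was at 0 of 531193 UMIs at E12, where a floor of 3 UMIs, not the interval used elsewhere, is 5.65 CPM. It stood at 0.542, 100 and 371 CPM [356 to 387] in the 3 later libraries. Car4 was also at 0 at E12 and then at 3.25, 248 and 332 CPM. Aqp7 followed with 0, 2.71, 198 [191 to 205] and 752 CPM [729 to 774]. These genes had 6 or fewer UMIs at E12 and at E15, so their embryonic levels could not be ordered at this depth. Rgcc stood at 28.2, 159, 546 and 1668 CPM, and its E12 value, from 15 UMIs, lies below the 48.1 CPM of the empty droplets there and above the 1.06 CPM (1 UMI) of the endocardial cells, so no expression is read from it. C1qtnf9 had 0, 13.0, 102 and 585 CPM. The fatty acid carrier Cd36 stood at 24.5, 355, 2008 and 3426 CPM, also in stage order.

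The sprouting genes took another course in the same cells. Kcne3, a potassium channel subunit, stood at 117, 89.0, 18.4 and 3.8 CPM, lower at P2 than in the embryo and lowest in the adult. Whether E12 and E15 differ in it was not tested. Apln stood at 30.1, 67.3, 96.5 and 31.5 CPM and Tmem255a at 62.1, 174, 169 and 4.32 CPM. Such levels are sums over cells, so more cells with a gene and more RNA per cell cannot be told apart from the level alone. The share of gated cells with a Timp4 UMI was 22.6% at P2 and 31.5% in the adult, and with an Aqp7 UMI 40.5% and 53.2%.

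**Figure D2:**
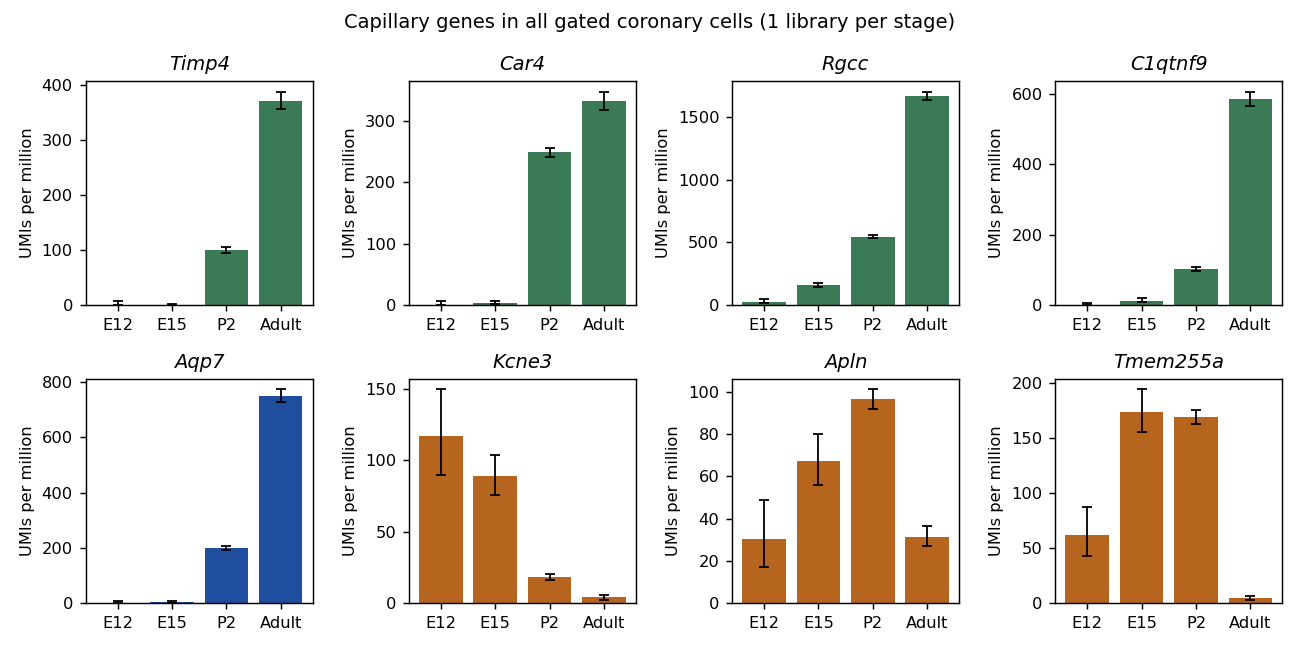
Level of the capillary genes of the rule (green), Aqp7 (blue) and sprouting genes (brown) in all gated coronary cells, in CPM (y axis), by stage (x axis). Bars are 1 library each with exact Poisson 95% intervals. The green and blue bars are highest in the adult, while Kcne3 is lowest there (3.8, against 117 at E12).

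Most of the chosen cells held 2 or 3 of the 4 genes, and Rgcc carried most of the UMIs counted by the rule. At P2, 154 cells had a UMI of 1 of the 4 genes only, 521 of 2, 492 of 3 and 185 of all 4. In the adult the numbers were 190, 600, 615 and 309. Rgcc made up 52.6% of the 12517 UMIs at P2 and 54.9% of the 12874 in the adult, Car4 27.3% and 12.4%, Timp4 11.1% and 13.9%, and C1qtnf9 8.98% and 18.8%. Car4 thus took the larger part at P2, and C1qtnf9 in the adult. A cell held a median of 8 such UMIs at P2, with 40 at most, and 6 in the adult, with 36 at most.

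The chosen cells were not free of sprouting genes. Of P2 Timp4/Car4 cells 9.39% had no UMI of the 5 sprouting genes, against 51.3% of the adult cells, but the P2 cells were also deeper (a median of 3919 against 1429 UMIs). With each cell thinned to 500 UMIs the shares were 69.1% and 79.3%, and summed over all UMIs the sprouting genes stood at 732 and 499 CPM. Among Kcne3/Apln cells, 51.3% at P2 and 25.5% in the adult held at least 2 UMIs of the capillary genes, with median depths of 5053.5 and 2049 UMIs. Thinned to 500 UMIs 2.04% and 4.03% did, and the capillary genes stood at 413 and 593 CPM, so that the order of the stages turned with depth. The groups were thus cut along a range, where 1 sum passed the other, and were not free of each other's genes at either stage.

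Values at the edge of the rule differed by stage. Gated P2 cells with exactly 1 UMI of the capillary genes that met the other conditions (25 cells) had 47.6 CPM of Aqp7 from 4 UMIs, and the 45 cells with exactly 2 had 134 CPM from 21 UMIs. In the adult Aqp7 stood at 518 CPM in the 59 cells just outside and at 359 CPM in the 150 just inside. Cd36 stood at 880 and 1466 CPM at P2 and at 3457 and 3145 CPM in the adult. The adult cells just outside the limit thus carried at least as much of both genes as those just inside.

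The choice was repeated on a random part of the UMIs of each cell, with 1 UMI asked for in place of 2, and read in the remaining UMIs. Of cells chosen in the first part, 64.4% at P2 (895 of 1389) and 67.5% in the adult (1193 of 1767) were again led by the capillary genes in the second, against 21.4% at E15 (18 of 84). The sprouting genes exceeded the capillary genes there in 19.7%, 4.75% and 32.1%. In the UMIs not used for the choice, Timp4 stood at 213 CPM at P2 and 570 in the adult, and Car4 at 508 and 495 CPM. Aqp7 was at 346 and 736 CPM. At E15 Car4 was at 0 in them and Rgcc at 464 CPM.

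Against the Kcne3/Apln cells of the same library, Timp4/Car4 cells carried more RNA of some genes for fatty acid uptake, such as Cd36 and Lpl, and of the channels Aqp7 and Aqp1, and less of some dividing-cell genes at P2 and of all 6 measured in the adult. With 20 CPM added to both sides and at least 50 UMIs over both groups, 55 of 9694 genes were higher by at least 1.5-fold at P2 (0.567% of those tested) and 64 were lower (0.66%). In the adult 409 of 6370 were higher (6.42%) and 365 lower (5.73%). The adult comparison group was 149 cells with 335472 UMIs, so its ratios are the less precise ones and part of the adult counts can be counting error. Scaled by the median ratio of all genes, the split was 69 higher and 54 lower at P2 and 610 higher and 251 lower in the adult. Of the 54 genes higher at P2 and measured in both libraries, 40 were also higher in the adult (74.1%), which is 10.2% of the 393 adult genes. Of the 39 lower at P2, 25 were also lower in the adult (64.1%, or 7.12% of the 351 adult genes) and 2, Hba-a1 and Hba-a2, were higher there.

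Of 17 measured fatty acid genes, 6 were higher at P2 and none lower (median log2 ratio 0.13, against -0.02 over all genes). The other 11 passed in neither direction, and 7 of the 17 had a ratio under 1. In the adult 9 of 13 were higher (0.86, against -0.01). Cd36 (chr5:17781690-17888801) stood at 3153 CPM in Timp4/Car4 and 1483 CPM in Kcne3/Apln cells at P2, a ratio of 2.13 [2.07 to 2.18], and at 3915 and 1824 CPM in the adult, a ratio of 2.15 [1.98 to 2.33]. Lpl (chr8:68880491-68907448), lipoprotein lipase, stood at 453 and 212 CPM at P2 and at 761 and 238 CPM in the adult, ratios of 2.14 [2.00 to 2.28] and 3.19 [2.55 to 4.04]. Both genes were thus present in either group and higher in the Timp4/Car4 cells. Gpihbp1, the anchor of lipoprotein lipase, was at 2133 against 1319 CPM at P2 and 2986 against 1222 CPM in the adult.

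Angptl4 (chr17:33773750-33781830), an inhibitor of lipoprotein lipase, was higher as well, at 353 against 178 CPM at P2 and 61.4 against 14.9 CPM in the adult, the latter ratio resting on 5 UMIs in Kcne3/Apln cells (4.12 [1.73 to 12.9]). Pparg, a nuclear receptor that drives fatty acid genes, was at 55.5 against 23.3 CPM at P2 and 72.2 against 32.8 CPM in the adult. Lipe, hormone-sensitive lipase, was at 48.1 against 22.6 and 119 against 50.7 CPM. The transcription factors Meox2 and Tcf15, known to promote fatty acid uptake in heart endothelium, passed 1.5-fold in the adult only, with Tcf15 at 497 and 335 CPM at P2 and 495 and 244 CPM in the adult. Whether the stages differ in this was not tested. Fabp5, a fatty acid binding protein, was nearly level at P2 (1725 and 1828 CPM) and higher in the adult Timp4/Car4 cells (1302 and 709 CPM). The acyl-CoA synthetases Acsl1, Acsl3, Acsl4 and Acsl5 did not pass 1.5-fold at P2.

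**Figure D3:**
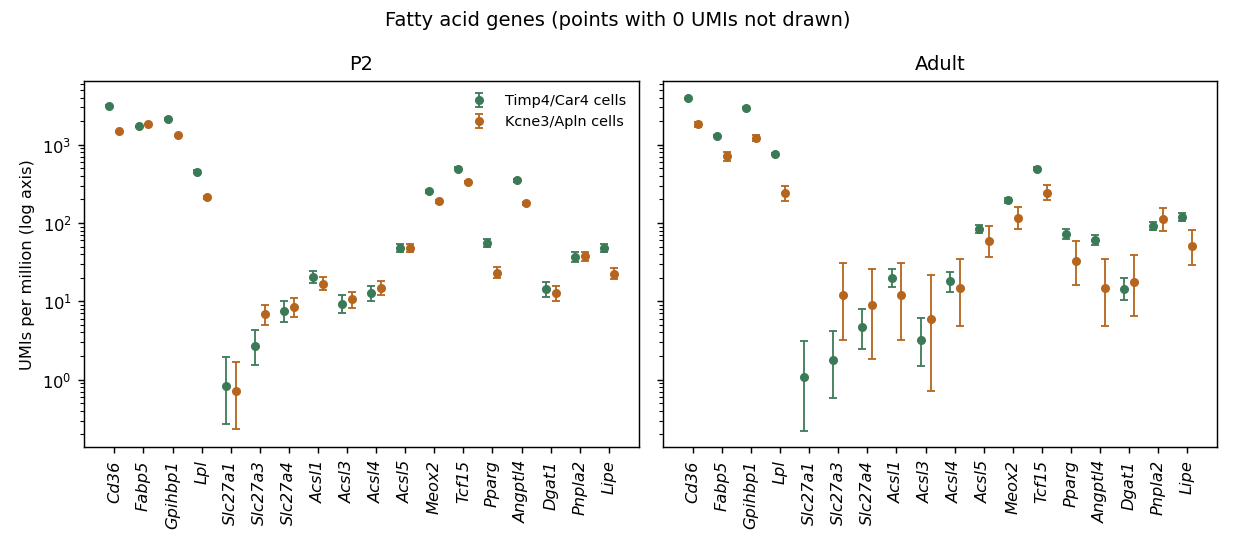
Level of 18 fatty acid genes in Timp4/Car4 (green) and Kcne3/Apln cells (brown) at P2 and in the adult, in CPM on a log axis. Whiskers are exact Poisson 95% intervals, and a point with 0 UMIs is not drawn. Cd36, Gpihbp1, Lpl, Pparg, Angptl4 and Lipe lie higher in green in both panels, while the acyl-CoA synthetases overlap at P2.

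Aqp7 and Aqp1 were higher too. Aqp7 (chr4:41033074-41048139) was at 347 CPM in Timp4/Car4 and 102 CPM in Kcne3/Apln cells at P2, a ratio of 3.41 [3.13 to 3.72], and at 755 and 343 CPM in the adult, a ratio of 2.2 [1.82 to 2.68]. With 20 CPM added to both sides, Aqp7 ranked first of the genes not used by the rule, by the smaller of its log2 ratios in both libraries. It did not rank first by the plain ratios given here. Without the added 20 CPM the smaller ratio was larger for Ccdc85a, Tmem140, Pltp and Fmo1. Aqp1, a water channel, was at 759 and 459 CPM at P2 and 2774 and 784 CPM in the adult. The list of water channels and carbonic anhydrases has 7 genes, of which 3 were measured and 2 higher at either stage. Its P2 median log2 ratio was 0.70 over these 3, and -0.06 with a limit of 20 UMIs (5 genes) or none (7 genes), so the list as a whole is not called higher. The carbonic anhydrase Car7 did not pass 1.5-fold.

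The other genes named by the same rule had several roles. Cd300lg (chr11:102041509-102055620), a receptor on the surface of capillaries, was at 430 and 198 CPM at P2 and 906 and 328 CPM in the adult. Pltp (chr2:164839518-164857711), which transfers phospholipids between lipoproteins, was at 41.1 and 12.8 CPM and at 195 and 83.5 CPM. Fmo1 (chr1:162829561-162866610), a flavin monooxygenase, was at 78.0 and 32.9 CPM and at 194 and 62.6 CPM. All of these were higher in the Timp4/Car4 cells of either library. Pim3 (chr15:88862186-88865726), a serine/threonine kinase, was at 262 and 114 CPM and at 310 and 152 CPM. Tmem140 (chr6:34863146-34874946) was at 83.0 and 33.2 CPM and at 266 and 104 CPM. Ccdc85a (chr11:28385685-28584324) was at 76.2 and 30.7 CPM and at 158 and 23.8 CPM, the last from 8 UMIs.

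These 10 genes kept their side when the comparison was made stricter, a choice made after the data were seen. Cells with at least 2 UMIs of markers of mural cells, fibroblasts, lymphatics, red cells, macrophages or platelets were left out, and the Kcne3/Apln cells had also to exceed the artery genes. Over all genes, 92 of 9269 were then higher (0.993%) and 74 lower (0.798%) at P2, and 765 of 5972 (12.8%) and 586 (9.81%) in the adult. All 10 then stayed past 1.5-fold in both libraries, with log2 ratios of 0.77 (Angptl4) to 1.88 (Aqp7) at P2 and 0.63 (Pim3) to 1.64 (Aqp7) in the adult.

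The genes lower in Timp4/Car4 cells changed with that choice. As first chosen, those with the lowest ratios included Gja4, Ccl21a, Fbln5, Mgp, Clu, Jag1, S100a6, Cd63 and Eln. Gja4 (chr4:127311421-127314039), the gap junction protein connexin 37 of arteries, was at 18.2 CPM in Timp4/Car4 and 123 CPM in Kcne3/Apln cells at P2, and at 10.8 and 125 CPM in the adult. Fbln5 (chr12:101746565-101819055), an elastic fibre protein, was at 26.6 and 127 CPM and at 37.4 and 322 CPM. Among the Kcne3/Apln cells, 211 (17.2%) at P2 and 58 (38.9%) in the adult did not exceed the artery genes. In the stricter comparison Gja4 had log2 ratios of -0.15 and -0.49, Fbln5 of 0.23 and 0.32, and Eln, elastin, of 0.15 and 0.62. Fbln5 and Eln thus changed direction in both libraries, and Clu (0.92) and Jag1 (0.38) did so in the adult.

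Of these 9 genes, Cd63 was the 1 that stayed past 1.5-fold in both libraries under the stricter choice. Cd63 (chr10:128900989-128912822), a tetraspanin of endosomes, was at 143 CPM in Timp4/Car4 and 295 CPM in Kcne3/Apln cells at P2, lower by 2.07-fold [1.91 to 2.24], and at 43.5 and 206 CPM in the adult, lower by 4.73-fold [3.47 to 6.41]. Its stricter log2 ratios were -0.83 and -1.07.

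**Figure D4:**
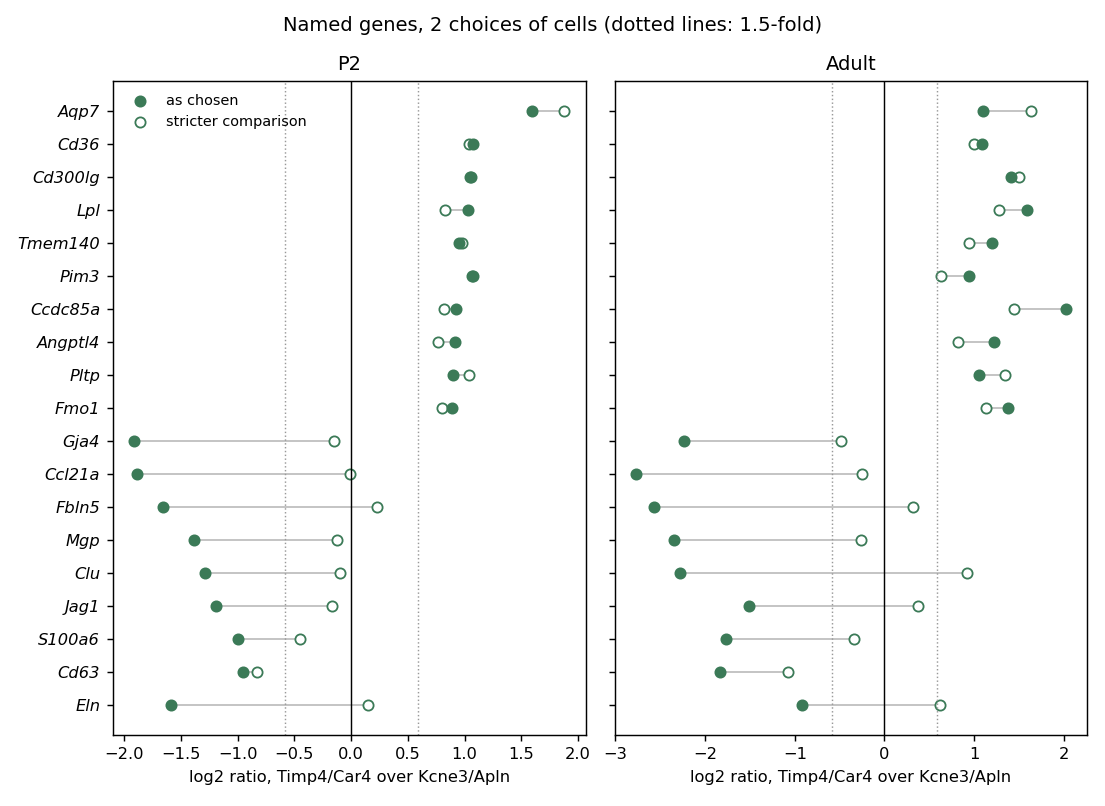
Log2 ratio of Timp4/Car4 over Kcne3/Apln cells (x axis) for 19 genes named by rule at P2 and in the adult. Filled points are the cells as chosen, and open points leave out cells with mural, fibroblast, lymphatic, red-cell, macrophage or platelet markers (cardiomyocyte markers were not among them) and ask the comparison cells to exceed the artery genes. Dotted lines mark 1.5-fold. The upper 10 genes stay to the right of the dotted line in both panels, while of the lower 9 only Cd63 stays to the left of it in both.

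Markers of other cell types moved with these lower genes. The 10 mural markers summed to 5172 CPM in adult Kcne3/Apln cells, with none of them at 0, Acta2 on top at 1976 CPM, and 14.8% of the cells with at least 2 such UMIs. In the adult Timp4/Car4 cells they summed to 90.9 CPM, with Rgs5 on top and 1.28% of cells. At P2 the sums were 70.0 and 25.6 CPM. The mural signal in the adult comparison was thus almost all on the side of the Kcne3/Apln cells. The 5 lymphatic markers, nearly all Ccl21a, summed to 147 CPM in Timp4/Car4 and 585 CPM in Kcne3/Apln cells at P2, where 1 Timp4/Car4 cell alone held 199 Ccl21a UMIs. Ccl21a has near-identical copies, so its counts are uncertain. The 7 fibroblast markers summed to 30.4 and 93.9 CPM at P2 and to 91.6 and 203 CPM in the adult. Cardiomyocyte markers summed to 163 and 98.4 CPM at P2 and 204 and 212 CPM in the adult. Myl2 led them except in adult Kcne3/Apln cells, where Pln did at 89.4 CPM. At P2 none of the 10 cardiomyocyte markers was at 0. There 14.7% of Timp4/Car4 and 11.1% of Kcne3/Apln cells held at least 2 such UMIs, against 7.18% and 8.72% in the adult. Adult Myh7 was at 0 in both groups, and Myl7 was at 0 in the adult Kcne3/Apln cells. Cardiomyocytes burn fatty acids and carry some of the same genes. Without these cells, a choice made after the data were seen, the fatty acid counts were 6 of 17 at P2 and 9 of 12 in the adult (over all genes 0.583% and 6.54% were higher, and 0.742% and 5.79% lower), and the 19 named genes stayed past 1.5-fold on their side in both libraries. Cells of the other types were left out in the stricter comparison above.

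Receptor and transporter genes were counted at both stages, and the difference between the stages, where 0.567% and 6.42% of all genes were higher, was not tested. None of 7 VEGF and Tie receptor genes passed 1.5-fold at P2 (median log2 ratio 0.25), and 3 did in the adult (0.50). Kdr, the main VEGF receptor, was at 471 and 362 CPM at P2 and 916 and 516 CPM in the adult. Flt1, a second VEGF receptor, was at 252 and 196 CPM and at 673 and 352 CPM, and Tek, the angiopoietin receptor, at 134 and 110 CPM and at 213 and 104 CPM. Of the transporter and barrier genes, 1 of 10 was higher at P2 and 5 of 7 in the adult. Slc28a2, a nucleoside transporter, was at 81.2 and 42.0 CPM and at 229 and 62.6 CPM. The efflux pumps Abcb1a and Abcg2 and the junction proteins Cdh5 and Esam passed 1.5-fold in the adult. Of 5 flow-response genes, Klf2, Klf4 and Thbd (thrombomodulin) were higher in the adult, with Klf2 at 580 and 298 CPM, and at P2 none was higher and 1, Edn1 (endothelin), was lower at 7.85 and 21.9 CPM.

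Genes of dividing cells had ratios under 1 in both libraries. At P2 all 14 did, and 4 were lower by 1.5-fold (median log2 ratio -0.48). All 6 measured were lower in the adult (-1.62). Cdk1, the mitotic kinase, was at 130 and 222 CPM at P2 and 8.98 and 74.5 CPM in the adult. In the stricter comparison 9 of 14 at P2 and 5 of 5 in the adult were lower, where 0.798% and 9.81% of all genes were. Immediate-early genes, which also mark handling, were higher at P2 in 5 of 12 and in 11 of 12 under the stricter choice (0.993% of all genes), with Socs3, an inhibitor of cytokine signalling, at 254 and 138 CPM. In the adult 3 were higher and 1, Nr4a1, was lower.

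Artery genes and sprouting genes not used by the rule differed less evenly. Of the artery list 5 of 13 were lower at P2 and 6 of 11 in the adult, but in the stricter comparison none was lower at either stage. Of 11 tip-cell and sprouting genes, 2 were lower at P2: Adm, adrenomedullin, at 37.8 and 67.4 CPM, and Igfbp3, which binds insulin-like growth factors, at 66.5 and 247 CPM. In the adult 3 of 10 were lower, Adm at 79.0 and 185 CPM, Esm1 at 12.9 and 92.4 CPM and Mcam, an adhesion molecule, at 86.2 and 235 CPM. Ednrb, an endothelin receptor, was higher at 129 and 38.8 CPM, and the other 6 passed 1.5-fold in neither direction, among them Igfbp3 at 79.4 and 47.7 CPM. Oxidative phosphorylation genes (16 at P2, 17 in the adult) did not pass 1.5-fold at either stage, and glycolysis genes did so in 0 of 14 and 1 of 12. Caveola genes split, with Cav2 and Sdpr higher and Prkcdbp lower in the adult.

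Cells led by the 5 artery genes offered another comparison, in which 160 of 9054 genes were higher in Timp4/Car4 cells at P2 (1.77%) and 169 of 7758 in the adult (2.18%), and 436 (4.82%) and 335 (4.32%) were lower. Highest by rule were Trp53i11, at 335 and 83.6 CPM at P2 and 302 and 59.4 CPM in the adult, Lpl, at 453 and 107 and at 761 and 312 CPM, and Fabp5, at 1725 and 776 and at 1302 and 540 CPM. The phosphodiesterase Pde2a was at 164 and 55.5 and at 189 and 68.2 CPM, and Phlda1 at 165 and 61.5 and at 161 and 55.5 CPM. Lpl and Fabp5 thus lay well above the artery-gene cells at either stage. The lowest were Fbln5, at 26.6 and 790 CPM at P2, Gja4, Mgp, Clu and the lymphatic marker Ccl21a. Markers of other cell types moved with them. Lymphatic markers summed to 147 CPM in Timp4/Car4 and 3834 CPM in artery-gene cells at P2. Fibroblast markers summed to 30.4 and 537 CPM at P2 and 91.6 and 1070 CPM in the adult. Adult macrophage markers summed to 53.2 and 478 CPM. Cardiomyocyte markers went the other way, at 163 and 74.2 CPM and at 204 and 94.0 CPM. Red-cell markers did so in the adult, at 869 and 114 CPM. In the adult Aqp7 did not go the way of Lpl and Fabp5: artery-gene cells had 939 CPM of it, more than the 755 CPM of Timp4/Car4 cells. At P2 the values were 251 and 347 CPM. The marker was therefore not particular to Timp4/Car4 cells among adult coronary cells.

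Between P2 and the adult, Timp4/Car4 cells differed in genes for antigen presentation, which were higher in the adult, and in genes of division and imprinted growth genes, which were lower. Of 9019 genes, 700 were higher in the adult cells (7.76%) and 751 lower (8.33%). All 10 measured genes of MHC class I and II presentation were higher (median log2 ratio 1.83, against 0.00 over all genes). H2-K1, a class I heavy chain, was at 81.5 CPM at P2 and 1293 CPM in the adult, a ratio of 15.9 [14.4 to 17.5], and had a UMI in 27.2% and 77.4% of the cells. B2m, its light chain, was at 1412 and 5977 CPM. H2-Q6 and H2-Q7, which share near-identical sequence and cannot be told apart with certainty, were at 0.501 and 7.02 CPM at P2 and 168 and 222 CPM in the adult. AW112010, an interferon-inducible transcript, was at 36.9 and 1024 CPM.

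Interferon genes were higher in the adult in 10 of 12. The gate had taken out cells with more than 2 UMIs of 5 interferon genes, a limit that is stricter on the deeper P2 cells. With the whole rule applied to cells thinned to 500 UMIs, where the limit bears alike on both, 4 of 6 measured were higher, against 16.2% of the 2873 genes tested (12.9% were lower). Irf7, a regulator of the interferon response, was at 28.9 and 120 CPM and Gbp2, a guanylate-binding protein, at 28.4 and 107 CPM. Heat shock genes were higher in 5 of 8, with the chaperones Hspb1 at 176 and 1954 CPM and Hspa1a at 313 and 2926 CPM. Hspa1a has a near-identical copy, Hspa1b, so its counts are uncertain. The part of handling in these genes was not tested. Xdh, xanthine dehydrogenase, was at 1.67 CPM (10 UMIs) and 193 CPM, and Thrsp, a factor of lipid synthesis, at 10.0 and 306 CPM.

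All 14 dividing-cell genes were lower in the adult cells (median log2 ratio -2.03), as were 7 of 8 imprinted growth genes. H19, an imprinted non-coding RNA, was at 781 CPM at P2 and 8.98 CPM in the adult, lower by 87.0-fold [58.9 to 135]. Mest was at 2369 and 79.4 CPM and Igf2, a growth factor, at 202 and 15.4 CPM. Cdkn1c, an imprinted inhibitor of the cell cycle, went the other way, at 238 and 610 CPM. Among the genes of division Birc5 was at 162 and 6.82 CPM, Hmgb2 at 1114 and 161 CPM, Stmn1 at 776 and 99.8 CPM, and Cks1b, Cks2 and 2810417H13Rik were also among the 10 lowest.

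Of 16 fatty acid genes 4 were higher in the adult and 1, Angptl4, was lower by 5.75-fold, while Cd36 stood at 3153 and 3915 CPM. The water channel list was higher in 3 of 3, with Aqp7 at 347 and 755 CPM and Aqp1 at 759 and 2774 CPM, and the VEGF and Tie receptors in 5 of 7. The glycolysis genes Gapdh, Pkm and Tpi1 were lower. Tfpi and Plat, which restrain clotting and dissolve clots, were lower in 2 of 5 genes of that list, and Plvap, the protein of capillary diaphragms, was at 34.6 and 10.1 CPM. Klf2 was lower, at 1458 and 580 CPM, and Thbd higher, at 113 and 316 CPM.

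In the other coronary cells of these libraries the MHC, dividing-cell and imprinted lists had like directions. The 2 other groups share cells, namely 187 of 1224 Kcne3/Apln and of 548 artery-gene cells at P2 (15.3% and 34.1%) and 44 of 149 and of 1174 in the adult (29.5% and 3.75%), so they are not separate evidence. In Kcne3/Apln cells 820 of 8657 genes were higher in the adult (9.47%) and 869 lower (10.0%), with 7 of 8 MHC genes higher and 12 of 14 dividing-cell and 7 of 9 imprinted genes lower. In artery-gene cells, with 700 (8.84%) higher and 749 (9.45%) lower of 7923, the counts were 12 of 12 MHC genes higher, and 12 of 14 and 9 of 10 lower. The differences in these 3 lists were thus not seen in Timp4/Car4 cells alone. Interferon genes were higher in 8 of 12 in Kcne3/Apln and 11 of 12 in artery-gene cells, and heat shock genes in 5 of 8 and 3 of 8. Of the fatty acid genes 2 of 17 were higher and 3 lower in Kcne3/Apln cells, and 6 of 16 higher and 1 lower in artery-gene cells. Whether the cell groups differ in these changes was not tested.

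**Figure D5:**
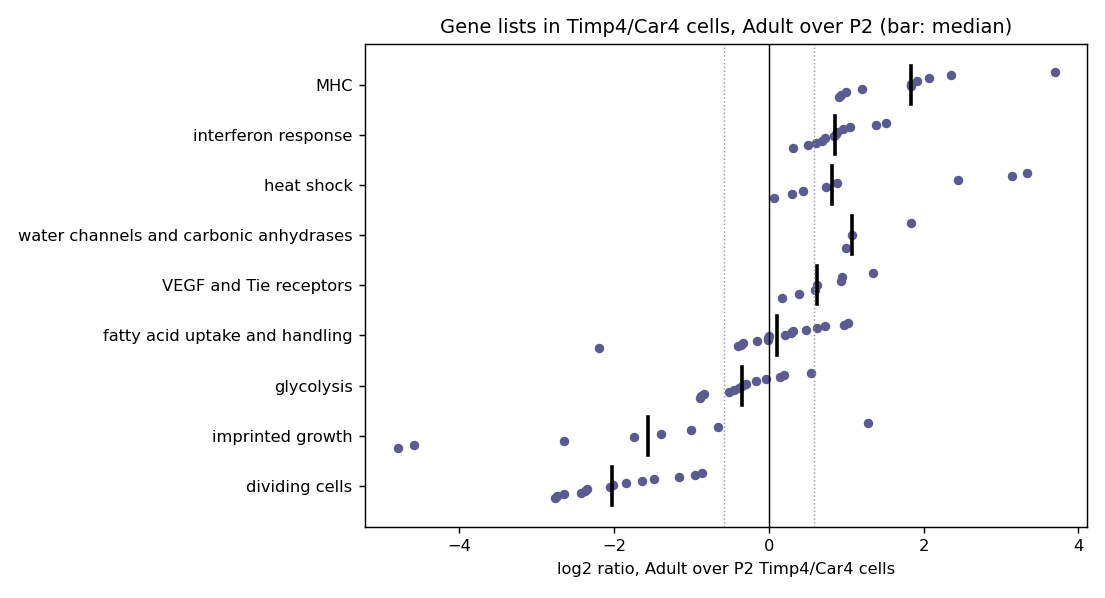
Log2 ratio of adult over P2 Timp4/Car4 cells (x axis) for the measured genes of 9 lists, 1 point per gene, with a bar at each list's median. Dotted lines mark 1.5-fold. The MHC points all lie to the right, with H2-K1 farthest, and the dividing-cell points all lie to the left. The fatty acid points lie on both sides of 0, with 4 past the right dotted line and Angptl4 past the left one.

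Summed red-cell RNA also differed between the stages, carried by a few cells. The 5 globin and erythroid markers summed to 9.19 CPM in P2 and 869 CPM in adult Timp4/Car4 cells. At least 2 such UMIs were held by 0.444% of the P2 and 0.583% of the adult cells, and 1 adult cell held 409 UMIs of Hba-a1. Hba-a1 had a log2 ratio of 3.87 between the stages, and 0.28 without the cells that held at least 2 UMIs of other cell types' markers. For Hba-a2 the values were 3.47 and 0.14, for Hbb-bs 3.70 and 0.55, and for Ccl21a -2.75 and -0.61. Adult suspensions, and not the others, had gone through a lysis of red cells. Macrophage markers summed to 2.00 CPM at P2, with Ptprc at 0, and to 53.2 CPM in the adult. The counts for the MHC, interferon, dividing-cell and imprinted lists kept their direction without these cells.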

How the data were processed

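CD31+/CD45- heart cells of 4 stages were measured with 10x Genomics v2 3′ kits, 1 library each. The authors mapped the reads to mm10 with Cell Ranger 2.2 (builds and tools per the submitters' processing notes), and the deposited values are whole-number UMI counts for 27998 genes per barcode, without normalization. The E12 matrix held all barcodes, and those with at least 452 UMIs were taken as cells. The other matrices were used as deposited. No cell was removed as a doublet. A Scrublet-type score (limit 0.15) marked 0, 1, 32 and 74 of the Timp4/Car4 cells in stage order. Leaving out these and cells outside depth, gene and mitochondrial limits was an alternative. Counts were summed per library and cell group in Python 3.11.15 (numpy 2.4.6, scipy 1.17.1, pandas 2.3.3, scikit-learn 1.9.0, matplotlib 3.10.9) and given as CPM. Intervals are exact Poisson (levels), Clopper-Pearson (shares) or conditional binomial (ratios, without the added 20 CPM). A gene was called past 1.5-fold after adding 20 CPM, with the 24 genes of the cell rule left out and at least 50 UMIs asked for. The calls were checked on simulated counts with known changes. In the adult comparison with Kcne3/Apln cells the check also called genes made without a change, so part of the adult counts can be counting error. In the P2 one and between the stages it called none. The simulated counts held counting error only and no variation between cells. The check therefore cannot show that the P2 and stage counts are free of genes carried by a few cells. Named genes were the 10 highest and 10 lowest by the smaller log2 ratio over P2 and the adult, the 10 highest and lowest between these stages, the 5 highest and lowest against artery-gene cells, and the leading members of 19 lists. A result of 1 gene is not reported here. The cells and lists were chosen with earlier results of these data known. The stricter comparison, the one without cells with cardiomyocyte markers and the thinning after the gate were added after seeing the data. Stage, library and handling cannot be told apart.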

Additional observations from a re-analysis of the deposited data

Results flagged for a closer look

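The alpha globins Hba-a1 and Hba-a2, oxygen carriers of red cells, lay past 1.5-fold in opposite directions in the 2 postnatal libraries when Timp4/Car4 cells were set against Kcne3/Apln cells. Hba-a1 had a log2 ratio of -1.49 at P2 and 3.79 in the adult, and Hba-a2 one of -0.74 and 3.6. In the adult, 1.34% of Timp4/Car4 cells held Hba-a1, and 1 cell held 409 of its 832 UMIs there. For Hba-a2 the share was 0.70%, and 1 cell held 330 of 620 UMIs. Without cells with at least 2 UMIs of other cell types' markers, red-cell markers included, the log2 ratios were -0.04 and 0.11 for Hba-a1 at P2 and in the adult, and 0.0047 and 0.20 for Hba-a2, all within 1.5-fold. The genes have near-identical copies, so that reads may be split between them. The difference between the libraries was not tested.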

How the results depend on the processing

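No paired analysis was possible because each stage has 1 library and no replicate number pairs cells. Of values for single named genes under all alternatives, 628 moved by less than counting error, 197 moved by more and 14 changed direction. List medians were judged by another bound. Of them 726 kept their sign and moved by less than 1.5-fold, and 5 that were first past 1.5-fold changed direction. The other 67 moved by more or were smaller medians that changed sign. With 5 CPM added in place of 20, genes higher and lower in Timp4/Car4 than in Kcne3/Apln cells numbered 140 and 249 (P2) or 758 and 673 (Adult), and 1206 and 1280 in adult against P2 Timp4/Car4 cells. With Kcne3/Apln cells above the artery genes, 92 (P2) and 769 (Adult) were higher, and with cells of other types also left out 92 (P2) and 765 (Adult), with 586 lower in the adult. The adult lower count was 572 at 20 UMIs, 799 with no filter on low counts and 138 in Y cells, and the adult higher count was 616 with 3 UMIs of the rule genes asked for. Thinned to 500 UMIs, 465 genes were higher and 372 lower in adult than in P2 cells, of fewer genes tested. The share of Timp4/Car4 cells thinned to 500 UMIs with the whole rule was 0.0% (E12), 0.82% (E15), 12.2% (P2) and 35.2% (Adult), and with the gate on all UMIs 0.943%, 12.6% and 34.0% for the last 3. With 3 UMIs of the capillary genes asked for it was 0.0% (E12), 0.818% (E15) and 44.7% (Adult). Chosen in 1 part of the UMIs and read in the other, levels were at E15 0.0 CPM for Car4, 464 for Rgcc and 37.12 for C1qtnf9, at P2 213.5, 508.5, 962.6 and 173.9 for Timp4, Car4, Rgcc and C1qtnf9, and in the adult 569.7, 495.3, 2331 and 759.2. Among results first past 1.5-fold, directions changed, on the log2 scale, as follows, and the cause was not tested. The water channel median at P2 was -0.0611 at 20 UMIs and with no filter. Thinned to 500 UMIs, P2 Ccl21a was at 0.0919 and Jag1 at 0.2276, and adult Ccl21a at 0.1015, Fbln5 at 0.4598 and Eln at 1.3395. With Kcne3/Apln cells above the artery genes, adult Fbln5 was at 0.2596, Eln at 0.0562 and the artery median at 0.3649. With cells of other types also left out, P2 Fbln5 and Eln were at 0.2265 and 0.1456, and adult Fbln5 at 0.3197, Clu at 0.9166, Jag1 at 0.3751, Eln at 0.6202 and the artery median at 0.2901. In Y cells the adult artery median was 0.9743, from 1 gene, and Hba-a2 between the stages was at -0.1423.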

Other observations

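Cells with Xist UMIs and cells with Y-linked UMIs were told apart within each pool. Timp4/Car4 cells made up 37.7% of gated P2 cells with Xist and 39.6% of those with Y-linked UMIs, and 45.5% and 48.1% in the adult.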
